A study of Mus musculus with 4 samples.

Results

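Globin-rich erythroid cells were the cells of a mouse fetal liver progenitor sort in which 4 globin genes, Hba-a1, Hba-a2, Hbb-bs and Hbb-bt, together made up at least 1% of the cell's unique molecular identifiers (UMIs, each standing for 1 captured RNA molecule). The cells were thus chosen by their measured globin UMIs, and by this rule 68 of 9960 cells were globin-rich, of which 6 came from mutant livers and 62 from wild-type livers. The study profiled single cells with the 10x Genomics Chromium platform from the E14.5 fetal liver, a site of embryonic blood formation, of C57Bl/6J mice. Cells had been sorted as Lin-Sca-cKit+Cd34+, a surface phenotype of myeloid progenitors. The mutant group (MT) was Gata2-77-/-, homozygous for a mutation of the enhancer that lies upstream of Gata2, a transcription factor of blood stem and progenitor cells, and gave libraries A and B. The wild-type group (WT) had the same strain, stage and sort and gave libraries F and I. Whether a library held 1 embryo or several is not stated in the labels, so the variation behind the p-values below may be technical. The test of the share of cells rests on the variation among libraries. Gene tests rest on how a difference between cell sets varied between the 2 WT libraries. They leave 1 residual degree of freedom and borrow information on variance across genes. The table held UMIs of 3624 genes in 2235 and 2745 MT cells and in 3042 and 1938 WT cells, with totals of 16837863 and 19921052 UMIs in the MT libraries and 40117680 and 33913118 UMIs in the WT libraries.

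Erythroid progenitors of the fetal liver lose Kit and CD34 as they mature into erythroblasts, which fill with hemoglobin, shrink and finally expel the nucleus. Hemoglobin is a tetramer of alpha and beta chains, each holding a heme group, and heme is made by a chain of enzymes that begins and ends in the mitochondrion. GATA1 and KLF1 are the transcription factors that switch on the globins, the heme enzymes and the red cell membrane proteins. Hba-a1 (chr11:32283511-32284465, plus strand) and Hba-a2 (chr11:32296489-32297298, plus strand) encode alpha chains, and Hbb-bs (chr7:103826534-103828096, minus strand) and Hbb-bt (chr7:103812524-103813996, minus strand) encode adult beta chains (GENCODE M21, mm10).

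The 250 bases before the RefSeq start of 6 genes that mark or regulate these cells are given below in their own 5′ to 3′ direction, because GATA and KLF factors read short motifs there. The sequences are from RefSeq's GRCm38.p6 annotation, which places these starts inside the outer gene bounds given by GENCODE, so the end of each window overlaps the GENCODE gene. Capitals mark GATAA, the core read by GATA factors, CACCC, the core read by KLF1, and CCAAT, a general promoter box, on either strand. No 2 matches overlapped in these windows.
Hba-a1, chr11:32283422-32283671, plus strand: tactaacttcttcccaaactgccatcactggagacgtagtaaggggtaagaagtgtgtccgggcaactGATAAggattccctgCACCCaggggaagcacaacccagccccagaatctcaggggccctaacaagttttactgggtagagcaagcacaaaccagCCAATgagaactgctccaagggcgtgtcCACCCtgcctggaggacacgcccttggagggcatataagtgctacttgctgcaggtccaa
Hbb-bs, chr7:103827929-103828178, minus strand: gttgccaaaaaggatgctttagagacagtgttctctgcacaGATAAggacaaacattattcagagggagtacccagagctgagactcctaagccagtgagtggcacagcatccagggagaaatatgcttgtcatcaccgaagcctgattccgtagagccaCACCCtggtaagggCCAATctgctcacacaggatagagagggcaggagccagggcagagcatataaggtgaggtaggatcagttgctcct
Hbb-bt, chr7:103813924-103814173, minus strand: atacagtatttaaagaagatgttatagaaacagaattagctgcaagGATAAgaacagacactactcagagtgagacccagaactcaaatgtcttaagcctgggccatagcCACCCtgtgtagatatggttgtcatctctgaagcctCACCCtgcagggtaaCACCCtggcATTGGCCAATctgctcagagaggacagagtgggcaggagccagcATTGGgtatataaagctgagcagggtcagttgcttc
Alas2, chrX:150547167-150547416, plus strand: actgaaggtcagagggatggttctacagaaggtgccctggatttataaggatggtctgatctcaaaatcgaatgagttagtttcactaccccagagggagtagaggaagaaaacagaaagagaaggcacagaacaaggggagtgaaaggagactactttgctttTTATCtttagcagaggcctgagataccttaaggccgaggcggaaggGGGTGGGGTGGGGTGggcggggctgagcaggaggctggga
Klf1, chr8:84901732-84901981, plus strand: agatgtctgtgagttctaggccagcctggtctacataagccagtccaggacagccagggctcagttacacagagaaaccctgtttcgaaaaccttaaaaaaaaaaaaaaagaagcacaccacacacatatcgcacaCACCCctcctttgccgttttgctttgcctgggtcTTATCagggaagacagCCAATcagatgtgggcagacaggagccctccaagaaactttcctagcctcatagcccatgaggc
Ermap, chr4:119189996-119190245, minus strand: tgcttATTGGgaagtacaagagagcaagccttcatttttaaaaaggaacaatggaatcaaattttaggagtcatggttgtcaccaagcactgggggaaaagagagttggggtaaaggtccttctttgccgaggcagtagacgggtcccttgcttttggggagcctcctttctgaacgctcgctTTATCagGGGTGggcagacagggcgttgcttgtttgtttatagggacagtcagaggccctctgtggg
Each of the 6 windows held 1 GATAA and at least 1 CACCC, and all but that of Alas2 held a CCAAT. In the globin windows the CACCC nearest to the start lay 56 to 60 bases before it in Hba-a1, 86 to 90 in Hbb-bs and 85 to 89 in Hbb-bt. Over all 32851 such windows of the mouse genome, 22.6% held GATAA, 52% CACCC and 33.8% CCAAT on either strand. Of the 56 genes of the membrane, heme and enzyme lists described below that were higher in globin-rich cells, 40 had a window. Of these 40 genes 11 (27.5%) held GATAA, 29 (72.5%) CACCC and 20 (50%) CCAAT, against 25.5%, 54.5% and 37.5% of all 27025 genes. A match of letters does not show that a factor binds there. The window of Hba-a2 matched that of Hba-a1 at 247 of 247 bases once shifted by 3 bases, and the split of UMIs between these near-identical genes is uncertain.

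Globin-rich cells stood clearly apart from all others by the share that chose them. The cells just inside the threshold had globin shares of 1.995%, 2.88% and 2.92% of their UMIs, and those just outside had 0.536%, 0.509% and 0.437%. In all, 2 MT cells and no WT cell lay between 0.5% and 1%. In library F the share ran from 1.995% to 79.5% with a median of 28.1%, and in library I from 2.92% to 84.6% with a median of 58.5%, so the globin-rich cells of library I held more globin. They were 31 cells in each WT library, yet those 31 cells held 96.2% and 97.4% of all globin UMIs of libraries F and I.

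**Figure D1:**
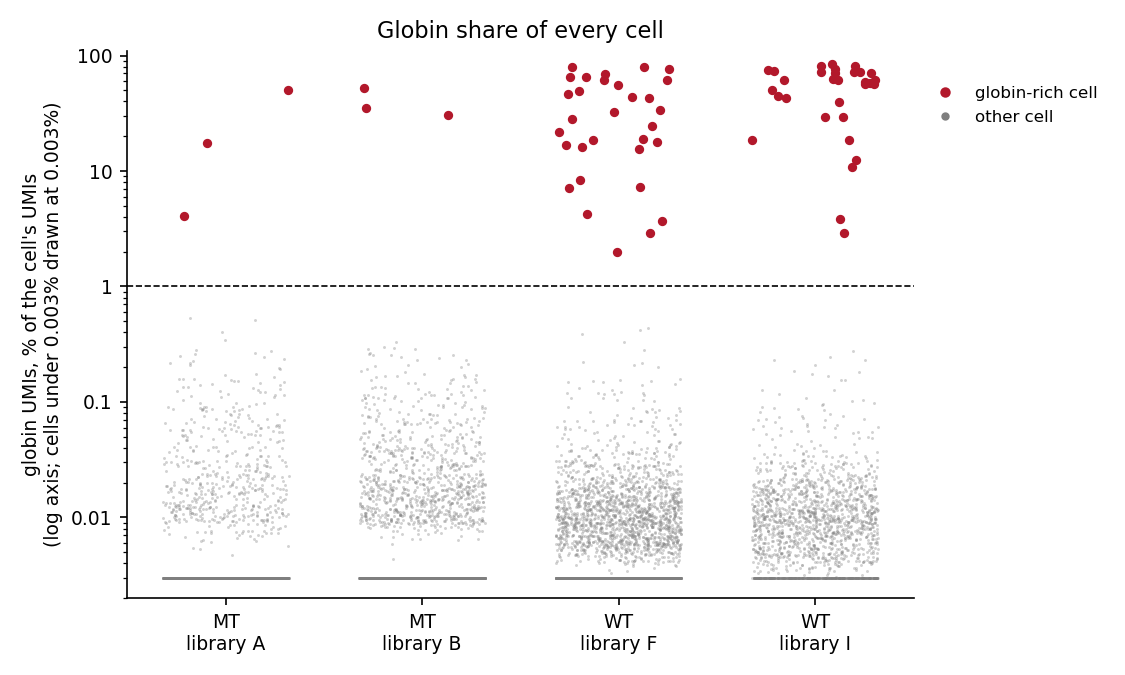
Share of each cell's UMIs that came from the 4 globins (log axis) in MT libraries A and B and WT libraries F and I, with 1 point per cell, the 1% threshold dashed and cells under 0.003% drawn at that value. The globin-rich cells, 3, 3, 31 and 31 in libraries A, B, F and I, lie above an almost empty gap.

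Globin-rich cells made up 0.134% of MT library A (exact 95% binomial interval 0.0277 to 0.392) and 0.109% of MT library B (0.0225 to 0.319). They made up 1.02% of WT library F (0.693 to 1.44) and 1.60% of WT library I (1.09 to 2.26). The share averaged 0.122% ± 0.0176 in MT and 1.31% ± 0.411 in WT (SD, n = 2 each), which is 10.75 times higher in WT. The genotypes did not overlap, but an exact two-sided permutation test over the 4 libraries gave p = 0.3333, the smallest it can give. These intervals cover counting error only, and the cells had been subsampled to 4980 per genotype before deposition.

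All 4 globins had a UMI in every globin-rich cell. Hbb-bs had a median of 1124 UMIs per cell in library F (31 cells, 32 to 3065) and 1877 in library I (249 to 3732). Hbb-bt had a median of 696 UMIs in library F and 1009 in library I. Hba-a1 had a median of 513 and 707 UMIs, and Hba-a2 of 309 and 447. Alpha UMIs were fewer than beta UMIs in both libraries, at 0.436 alpha UMIs per beta UMI in F and 0.411 in I. These globins chose the cells, and their levels are given as a description only.

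The split of beta globin UMIs is given for globin-rich cells and for the trace of globin UMIs in all other cells as a description with no test, since these genes chose the cells. Hbb-bs made up 60.9% and 62.4% of beta UMIs in the globin-rich cells of MT libraries A and B and 64.9% and 66.9% in those of WT libraries F and I. In the other cells it made up 5.90% and 12.7% in A and B and 39.0% and 44.7% in F and I. In each library the value of the other cells lay below that of the globin-rich cells. In the other cells of the MT libraries Hbb-bt had 1467 and 1913 UMIs, against 92 and 278 for Hbb-bs. These Hbb-bt UMIs lay in 439 and 690 cells, with up to 36 and 42 in a single cell. Hbb-bs reached at most 2 and 7 UMIs in a cell. In other WT cells Hbb-bt reached 37 UMIs in each library, and Hbb-bs 19 and 11. Globin made up only 0.00956% and 0.0118% of the UMIs of all other MT cells, and 0.00953% and 0.0104% in other WT cells. Alpha UMIs per beta UMI were likewise lower there, at 0.0302 and 0.0726 in MT and 0.278 and 0.249 in WT.

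**Figure D2:**
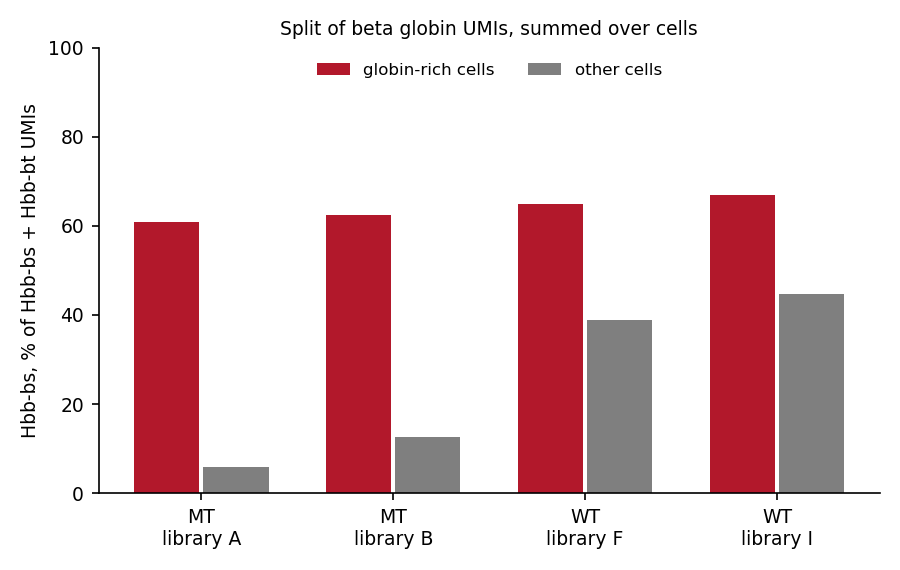
Hbb-bs as a percentage of Hbb-bs plus Hbb-bt UMIs in globin-rich cells (left bar) and in all other cells (right bar) of each library, summed over cells. The globin-rich cells lie between 60.9% and 66.9% in all 4 libraries, while the other cells lie between 5.90% and 44.7%.

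The split also varied among the globin-rich cells with little globin. In library F, the cell with the least globin (1.995%), which was 1 of the neutrophil-rich cells described below, had 73.2% of its beta UMIs from Hbb-bs and 0.498 alpha UMIs per beta UMI. The next 3 cells, with globin shares of 2.88%, 3.69% and 4.23%, had 27.1%, 39.6% and 35.8% of their beta UMIs from Hbb-bs, against a median of 64.0% over the 31 cells. Their alpha UMIs per beta UMI were 1.398, 0.865 and 0.631, the highest of the library, where the median was 0.457. In library I the lowest value of Hbb-bs was 60.3% and alpha per beta ran from 0.283 to 0.548. These cells were singled out after their values had been seen.

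The label of erythroid cells held against markers outside the rule. Slc4a1, the band 3 anion exchanger of the red cell membrane, had a UMI in 60 of 62 globin-rich WT cells (median 7 UMIs), against 0.122% of the 4918 other WT cells. Cldn13, a claudin of erythroblasts in mice, was detected in 56 of 62 (90.3%) against 0.488%, and Ermap, an erythroblast membrane protein that carries the Scianna blood group in humans, in 52 of 62 (83.9%) against 1.22%. Alas2, the erythroid enzyme that begins heme synthesis, was detected in 91.9% against 0.244%. The receptors of the sorting gate were nearly absent from globin-rich cells: Kit had a UMI in 2 of 62 (3.23%) and Cd34 in 3 of 62 (4.84%), never more than 1 UMI, against 44.0% and 73.9% of other WT cells. The globin-rich cells were shallower, with a median of 4804.5 non-globin UMIs per cell against 14350 in other WT cells. Thinned to 7176 non-globin UMIs, 1 of the 25 globin-rich cells deep enough had Kit and 1 Cd34 (4% each), against 26.9% and 61.6% of 4457 other WT cells. Non-globin UMIs fell as the globin share rose (Spearman rho = -0.93 over the 62 cells). The 37 cells left out were therefore mostly those with high globin shares, on which this check is silent. Both neutrophil-rich cells described below were among the 25.

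Among the 62 cells were 2, 1 in each WT library, in which 15 neutrophil genes made up 3.23% and 2.96% of non-globin UMIs. The median over globin-rich cells was 0.0650%. These 2 cells held 1181 of the 1375 neutrophil UMIs and 94 of the 123 UMIs of Mpo, the myeloperoxidase of neutrophil granules, found in all 62. Their globin shares were 1.995% and 18.4%. Each also held 1 UMI of Kit and 1 of Cd34, and no other globin-rich WT cell had a Kit UMI. Results that rested on them, other than those for Kit and Cd34, are given with and without them. This choice was made after the data had been seen. Doublets were not otherwise called.

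The globin-rich cells of the WT libraries were compared with all other cells of the same libraries on summed UMIs, with the globins left out of the totals and the tests. Levels are in CPM, counts per 1000000 non-globin UMIs of the measured genes. With edgeR, 814 of 3616 genes (22.5%) were higher in globin-rich cells and 728 (20.1%) were lower at an adjusted p under 0.05. DESeq2's Wald test called 498 higher and 266 lower. The median log2 fold change over all genes was -0.05, and it was -0.51 when libraries were scaled by their totals, with 473 genes higher and 1422 lower.

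Genes of the red cell membrane and surface were higher in globin-rich cells almost without exception. Of 14 measured genes, 13 rose in globin-rich cells, and the median log2 fold change was 7.51. Slc4a1 (chr11:102348824-102366203, minus strand) had 893 and 1272 CPM in globin-rich cells of libraries F and I, against 0.101 and 0.0595 CPM in other cells. Its log2 fold change of 14.01 (SE 0.29, adjusted p = 4.27e-19) was the largest rise of any gene meeting the naming rule. It was far higher in the globin-rich cells of each library, with no overlap, and 759 of all 3616 genes were likewise higher without overlap.

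The blood group proteins behaved alike. Rhd, of the Rh antigen, had 751 and 1046 CPM in globin-rich cells, against 1.01 and 0.595 CPM in other cells. Its partner Rhag had 237 and 436 CPM, against 0.905 and 0.506 CPM. Cldn13 (chr5:134914249-134915526, minus strand) had 483 and 639 CPM in globin-rich cells, against 1.16 and 0.357 CPM in other cells, a log2 fold change of 9.94 (SE 0.30, adjusted p = 1.10e-16). Ermap (chr4:119175457-119190011, minus strand) had 354 and 395 CPM, against 2.44 and 2.02 CPM, a log2 fold change of 7.84 (SE 0.33, adjusted p = 1.92e-14). Icam4, an erythroblast adhesion molecule, and Tspo2, an erythroid cholesterol-binding protein, rose by 7.17 and 8.14 on the log2 scale.

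Membrane genes with higher levels in the other cells rose as well. Cd24a, a surface glycoprotein of early erythroblasts, had 5472 and 6414 CPM in globin-rich cells, against 68.9 and 49.7 CPM in other cells. Tfrc, the transferrin receptor that brings in iron, had 319 and 424 CPM, against 21.1 and 24.2 CPM. Slc2a1, a glucose transporter, rose by 5.23, Epb41, a protein of the red cell membrane skeleton, by 3.60, and Bsg, basigin, by 2.55 on the log2 scale. Cd44, an adhesion receptor lost during erythroblast maturation, was the exception and fell by 1.85 (SE 0.54, adjusted p = 0.00929), with 4.32 and 29.0 CPM in globin-rich cells, against 73.1 and 74.9 CPM in other cells.

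**Figure D3:**
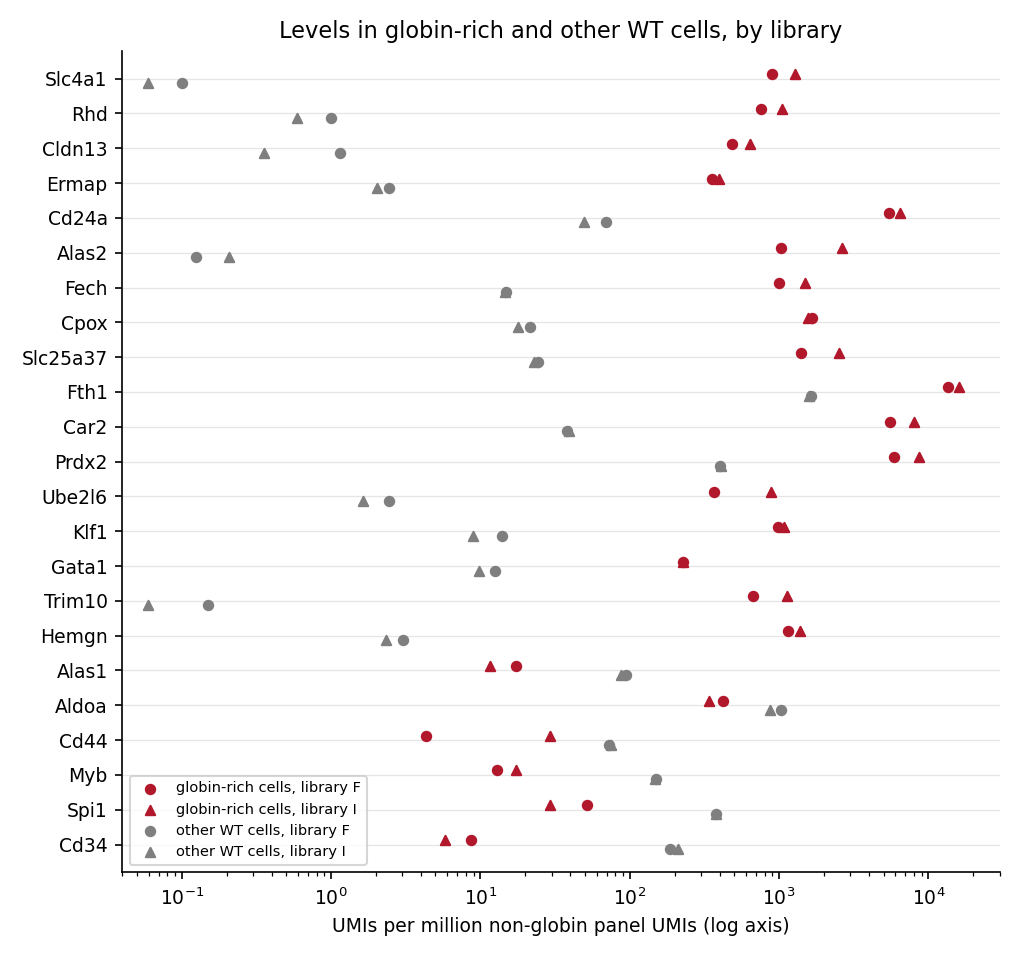
Levels of 23 genes in the globin-rich cells (red) and the other WT cells (grey) of library F (circles) and library I (triangles), in CPM of non-globin UMIs on a log axis. Slc4a1, at 893 and 1272 CPM against 0.101 and 0.0595 CPM, shows the widest distance, and Alas1, Aldoa, Cd44, Myb, Spi1 and Cd34 lie the other way round.

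Genes of heme synthesis and iron handling were higher in globin-rich cells in nearly every case. Of 24 such genes, 22 rose in globin-rich cells, 1 fell and 1 did not pass, with a median log2 fold change of 3.51. Alas2 (chrX:150547375-150570638, plus strand) had 1027 and 2649 CPM in globin-rich cells, against 0.126 and 0.208 CPM in other cells (log2 fold change 13.78, SE 0.29, adjusted p = 4.27e-19). Alas1, the form of the same enzyme that all tissues use, fell by 2.16 (SE 0.45, adjusted p = 0.000697), with 17.3 and 11.6 CPM in globin-rich cells, against 94.4 and 87.2 CPM in other cells. The 2 forms of this enzyme thus moved in opposite directions in both libraries.

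Enzymes that follow in the pathway rose. On the log2 scale Alad rose by 5.31, Urod by 5.23, Cpox by 6.81, Ppox by 5.21 and Fech, which inserts the iron, by 6.82. Slc25a37, mitoferrin, which brings iron into the mitochondrion, had 1411 and 2498 CPM, against 24.1 and 22.9 CPM. Tmem14c, a mitochondrial porphyrin transporter, rose by 3.35, and Glrx5, of iron-sulfur cluster assembly, by 3.22.

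Iron storage and heme handling genes rose too. The ferritin chains Fth1 and Ftl1 had 13547 and 16121 CPM and 12649 and 14384 CPM in globin-rich cells, against 1640 and 1578 CPM and 3266 and 3186 CPM in other cells. Blvrb, biliverdin reductase B, had 3884 and 4380 CPM in globin-rich cells, against 23.8 and 19.1 CPM in other cells. Hebp1, a heme-binding protein, rose by 7.40. Hmox1, heme oxygenase 1, which breaks heme down and also marks liver macrophages, rested on 8 and 1 UMIs, and its direction turned when cells were thinned. Pcbp1, an iron chaperone, had a log2 fold change of 0.06 (SE 0.21).

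Enzymes and redox proteins of red cells rose in most cases. Of 28 genes, 22 rose, 2 fell and 4 did not pass. Car2, carbonic anhydrase 2, had 5550 and 7959 CPM in globin-rich cells, against 38.0 and 39.4 CPM in other cells, a log2 fold change of 7.88 (SE 0.25). The peroxide-removing proteins Prdx2 and Gpx1 rose by 4.59 and 2.51. Bpgm, which makes the 2,3-bisphosphoglycerate that lowers the oxygen affinity of hemoglobin, had 142 and 442 CPM, against 15.1 and 14.6 CPM. Ube2l6, a ubiquitin-like conjugating enzyme, and Fam210b, a mitochondrial protein, rose by 8.59 and 7.87. Bnip3l, a mitophagy receptor that clears mitochondria from maturing red cells, rose by 3.19. The glycolytic enzymes Aldoa and Pgam1 fell, with log2 fold changes of -0.87 and -1.40, while Hk1, hexokinase 1, rose by 2.27.

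Transcription factors and cofactors moved both ways. Of 23 genes, 10 rose and 8 fell. Klf1 (chr8:84901928-84905291, plus strand) had 988 and 1086 CPM in globin-rich cells, against 14.0 and 8.87 CPM in other cells (log2 fold change 6.98, SE 0.22). Gata1 had 229 and 227 CPM, against 12.6 and 9.73 CPM (log2 fold change 4.81, SE 0.34). Gfi1b, a repressor of erythroid and megakaryocytic cells, rose by 3.97, Zfpm1, the GATA1 cofactor FOG1, by 3.42, Nfe2 by 2.23 and Lmo2 by 1.80. Bcl11a and Zbtb7a, repressors of embryonic or fetal globin genes in mouse and human, rose by 1.26 and 2.48. Cited4, a transcriptional co-activator, rose by 6.50 but differed between the libraries, with 574 and 192 CPM in globin-rich cells, against 8.45 and 3.09 CPM in other cells.

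The 8 regulators that fell included factors of stem, progenitor and myeloid cells. Spi1, the myeloid factor PU.1, had 51.8 and 29.0 CPM in globin-rich cells, against 379 and 381 CPM in other cells, a log2 fold change of -2.73 (SE 0.28). Myb, a factor of proliferating progenitors, had 12.9 and 17.4 CPM, against 149.9 and 147.9 CPM. Log2 fold changes were -4.04 for Hes6, -1.85 for Runx1, -2.58 for Cebpa, -3.01 for Fli1 and -3.46 for Irf8. Meis1 had no UMI in globin-rich cells, against 779 and 637 UMIs in other cells of libraries F and I, at least 2.60-fold lower when 3 counts are set over both libraries. Gata2 did not pass, with 8.63 and 5.81 CPM, against 26.5 and 23.4 CPM (log2 fold change -1.30, SE 0.85, adjusted p = 0.225).

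Among the largest rises outside the lists were further genes of red cells. Trim10, a RING protein needed for erythroid maturation, had 673 and 1133 CPM in globin-rich cells, against 0.151 and 0.0595 CPM in other cells. Hemgn, hemogen, had 1139 and 1371 CPM, against 3.02 and 2.32 CPM, and Tmcc2 had 375 and 1115 CPM, against 1.68 and 1.43 CPM. In each, the globin-rich cells of both libraries lay far above the other cells, and Tmcc2 was higher in library I than in library F.

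The 10 largest falls were genes with no UMI in any of the 62 cells. Lgals9, a galectin, had 3323 and 2674 UMIs in other cells and was at least 11.0-fold lower in globin-rich cells. Ctla2a was at least 9.32-fold lower, and Sox4, a factor of progenitors, at least 8.26-fold lower. Dctd, Dock10, Fam64a, Ikzf2, Hcls1 and Ly86 were lower by at least 5.84-fold, again with 3 counts over both libraries as the limit.

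Genes of the stem, neutrophil, basophil, monocyte, megakaryocyte and dendritic lists were lower or did not pass in globin-rich cells, beside 20.1% of all genes that were lower. Hmox1, given above, was the measured gene of the liver macrophage list and was higher. Of 14 genes of stem and multipotent cells, 9 fell with edgeR and 2 with DESeq2, and 8 had no UMI. Their summed level was 99.3 and 69.7 CPM in globin-rich cells, against 880 and 882 CPM in other cells. Of 15 neutrophil genes 11 fell, and their summed level was 2676 and 4386 CPM in globin-rich cells, against 18030 and 13440 CPM in other cells. Without the 2 cells rich in neutrophil UMIs the globin-rich cells held 614 and 410 CPM. Of 8 basophil and mast cell genes 4 fell, of 14 monocyte and macrophage genes 5, and of 4 dendritic cell genes 2. Of 6 megakaryocyte genes 1 fell, a share near that of all genes. Monocyte and macrophage genes summed to 125 and 197 CPM in globin-rich cells, against 741 and 667 CPM in other cells, with 5 of the 14 at 0.

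Genes of antigen presentation fell in 5 of 7 cases. B2m, the light chain of MHC class I, had 203 and 157 CPM in globin-rich cells, against 674 and 659 CPM in other cells. The immunoproteasome subunits Psmb8 and Psmb9 fell, with log2 fold changes of -2.70 and -3.04. Of 17 chaperone and folding genes 7 fell and none rose, among them Npm1, nucleophosmin, with 1264 and 1615 CPM, against 3828 and 4303 CPM.

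Genes of cell division rose with the erythroid genes. Of 37 G2/M genes 33 rose and none fell, and of 32 S phase genes 21 rose and 2 fell, with median log2 fold changes of 1.51 and 1.01. Scaled by library totals, 27 and 15 rose and 1 and 2 fell. Mki67, a marker of cycling cells, had 613 and 697 CPM in globin-rich cells, against 108 and 104 CPM in other cells, and Ube2c, which drives exit from mitosis, had 1338 and 2934 CPM, against 359.8 and 357 CPM. Among G1 regulators Ccnd3, the cyclin D of erythroblasts, rose by 2.84 and the inhibitor Cdkn2d by 2.92, while Ccnd1, Ccnd2, Cdk4 and Cdk6 fell.

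Ribosomal protein and mitochondrial genes did not keep a direction across scalings. Of 26 ribosomal protein genes 7 rose, a share near the 22.5% of all genes that were higher. Their median log2 fold change was 0.41, but with library totals 2 rose and the median was -0.04. Of 10 mitochondrially encoded genes 7 rose, and with library totals none rose and 1 fell. Immediate early genes, which mark stress of dissociation, were represented by Ier2 and Junb, and neither passed.

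**Figure D4:**
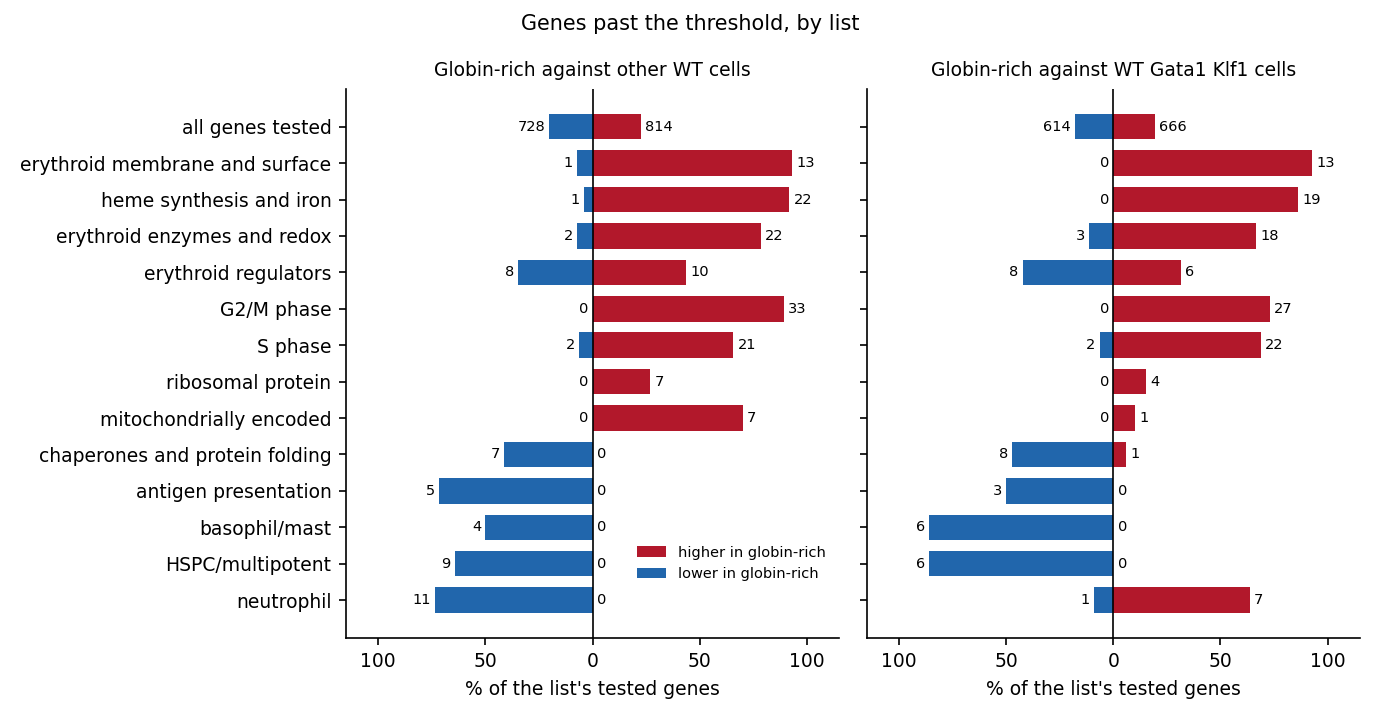
Share of each list's tested genes that were higher (right) or lower (left) in globin-rich cells at an adjusted p under 0.05, against other WT cells (left panel) and against WT Gata1 Klf1 cells (right panel), with the number of genes at each bar. Against other WT cells 13 of 14 membrane and 22 of 24 heme genes are higher, beside 814 of all 3616 genes, and the neutrophil bar of the right panel rests on 2 cells.

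To ask how globin-rich cells differ from the nearest cells of the sort, they were set against the 204 WT cells (126 in F, 78 in I) below the globin threshold that had a UMI of both Gata1 and Klf1. These 2 genes were not tested. Of 3441 genes, 666 (19.4%) were higher in globin-rich cells and 614 (17.8%) were lower with edgeR, and DESeq2 called 312 and 93. The globin-rich cells were higher again for 13 of 14 membrane genes, 19 of 22 heme and iron genes and 18 of 27 enzymes.

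Several genes of late erythroid cells were barely detected in the Gata1 Klf1 cells. Alas2 had 1027 and 2649 CPM in globin-rich cells, against 0.604 and 0 CPM in the Gata1 Klf1 cells, where 1 UMI was found in all. Slc4a1 had 893 and 1272 CPM, against 0.604 and 0.863 CPM (log2 fold change 10.62, SE 0.34), and Trim10 had 673 and 1133 CPM, against 3.02 and 0 CPM. Slc25a37 rose by 7.14, Ube2l6 by 7.18 and Fech by 5.54. Other genes had higher levels in the Gata1 Klf1 cells: Cd24a had 108 and 90.6 CPM there, Ermap 38.7 and 54.4 CPM, Tspo2 44.1 and 49.2 CPM and Blvrb 225 and 245 CPM. Cd24a rose by 6.28, Ermap by 3.41, Tspo2 by 3.85 and Blvrb by 4.52. Car1, carbonic anhydrase 1, had 69.1 and 75.5 CPM in globin-rich cells, against 186 and 106 CPM in the Gata1 Klf1 cells (adjusted p = 0.0517), whereas Car2 rose by 4.86.

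Regulators again moved both ways. Gata2 had 8.63 and 5.81 CPM in globin-rich cells, against 143 and 150 CPM in the Gata1 Klf1 cells, and fell by 3.89 (SE 0.51, adjusted p = 9.36e-13). Log2 fold changes were -3.63 for Myb, -3.88 for Hes6 and -1.94 for Cbfa2t3, a corepressor of erythroid factor complexes. Nfe2 rose by 1.37, Gfi1b by 1.09, Zbtb7a by 1.90 and Cited4 by 2.42. Zfpm1 had 104 and 46.5 CPM, against 96.1 and 73.3 CPM, a log2 fold change of 0.24 (SE 0.32). Kit had 4.32 and 5.81 CPM, against 55.6 and 86.3 CPM (log2 fold change -3.38, SE 0.75), and Cdk6, a G1 kinase of progenitors, fell by 2.89. The Kit UMIs of the globin-rich cells all lay in the neutrophil-rich cells described above. Genes without a UMI in globin-rich cells included Lgals9, at least 33.0-fold lower, and Ikzf2, at least 17.6-fold lower.

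The neutrophil genes of this comparison rested on the 2 cells described above. With all cells 7 of 11 rose and 1 fell, whereas without those cells none of 10 rose and 8 fell, beside 20.7% of all 3425 genes of that fit. Elane, neutrophil elastase, had a log2 fold change of 3.62 (adjusted p = 2.85e-71) with them and 0.28 (adjusted p = 0.548) without them. Ctsg, Prtn3 and Ms4a3, further genes of neutrophil granules and precursors, had log2 fold changes of 2.78, 1.61 and 1.70 with them and of -0.89, -1.32 and -3.20 without them. Basophil and mast cell genes were lower in 6 of 7 cases, and 7 of 7 fell without the 2 cells.

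The globin-rich cells varied widely among themselves. Over the 62 WT cells, the number of panel genes with a UMI ran from 384 to 2728 and fell as the globin share rose (Pearson r = -0.948 across cells, Spearman rho = -0.955). Ribosomal protein UMIs made up 6.39% to 45.1% of non-globin UMIs and were also lower at high globin shares (r = -0.93, within F -0.893 and within I -0.96). Non-globin UMIs per cell followed the same way (r = -0.881), so depth moved with the globin share. Non-globin UMIs are part of the total that defines the globin share. The falls of these UMIs and of the genes detected from them were thus partly set by that definition. All these correlations describe cells that share 2 libraries. Alpha UMIs per beta UMI had no common trend, with r = -0.438 in F and 0.239 in I.

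**Figure D5:**
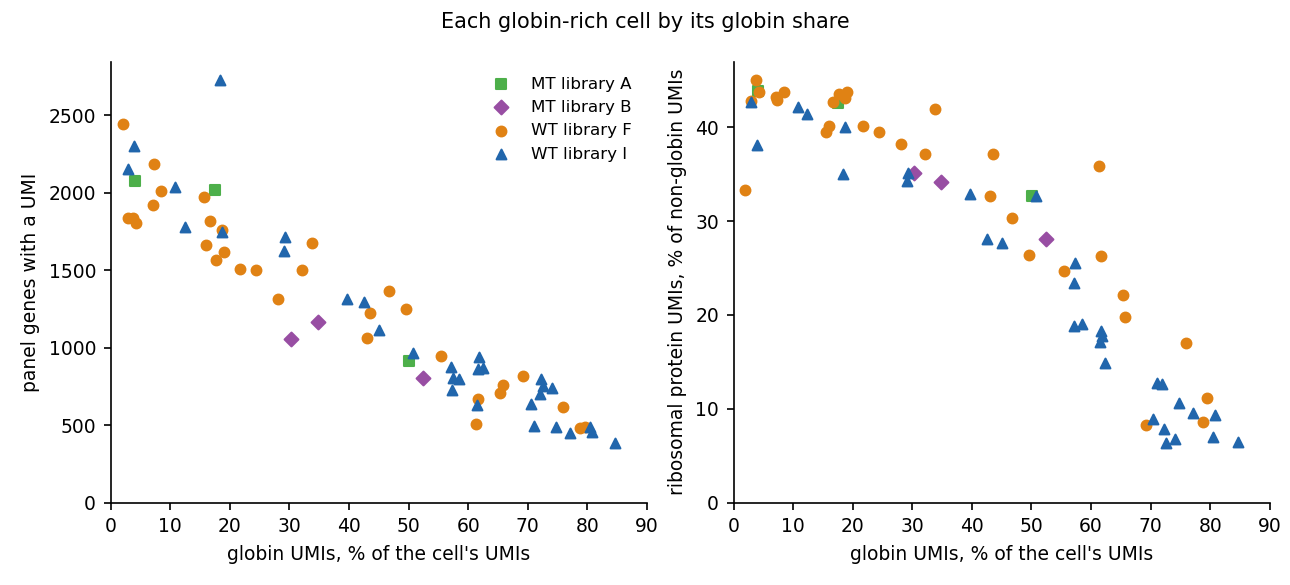
Number of panel genes with a UMI (left) and ribosomal protein UMIs as a percentage of non-globin UMIs (right) against the globin share of each globin-rich cell, with 1 point per cell and 1 symbol per library. Both measures fall as the globin share rises, with r = -0.948 and r = -0.93 over the 62 WT cells, and the 6 MT cells, drawn beside them, lie within the WT ranges. The fall in the number of genes is partly set by how the globin share is defined.

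Within each WT library the globin-rich cells were split at the median globin share, and the 32 upper cells were compared with the 30 lower cells, with the library as a block. The upper cells held 67174 and 33498 non-globin UMIs in F and I, and the lower cells 164542 and 138638. With edgeR 226 of 1442 genes (15.7%) were higher in the upper cells and 127 (8.81%) were lower. Both neutrophil-rich cells lay among the lower cells, and without them 32 genes were higher and 1 was lower. Without the library as a block 158 were higher and 66 lower. All 32 genes had been called with all cells, and their adjusted p lay between 0.0473 and 0.0476 without the 2 cells.

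Late erythroid genes were the ones that remained. Slc2a1 had 1176 and 2866 CPM in the upper cells, against 36.5 and 108 CPM in the lower cells, with a log2 fold change of 4.98 with all cells and 4.73 without the 2. Alas2 had 2962 and 10060 CPM, against 237 and 858 CPM (3.76 and 3.64). Tmcc2 had 1236 and 5135 CPM, against 24.3 and 144 CPM (5.46 and 5.90). Xpo7, a nuclear exportin that acts in erythroblast enucleation, had 298 and 1672 CPM, against 12.2 and 28.9 CPM (5.57 and 7.51). Ube2l6, Nfe2, Pim1, a survival kinase, and Hist1h2bc, a histone, also remained. In these genes the upper cells of both libraries lay above the lower cells of both, as in 382 of all 1442 genes tested with all cells.

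Several smaller changes did not pass without the 2 cells, although their sizes moved little. Slc4a1 had 1772 and 3791 CPM in the upper cells, against 535 and 664 CPM in the lower cells, and its log2 fold change was 2.28 (adjusted p = 0.00014) with all cells and 2.11 (adjusted p = 0.0618) without them. Cldn13 gave 1.93 and 1.71, with adjusted p values of 4.89e-05 and 0.0534, and Ermap 1.43 and 1.22, with 0.00214 and 0.0882. Without the 2 cells 2.52% of 1272 genes were higher. Of 13 membrane genes 13 rose with all cells and 1 without the 2, of 20 heme and iron genes 11 and 2, and of 31 G2/M genes 17 and, of 30, 1. Hspe1, a mitochondrial chaperone, was the gene that stayed lower, with 134 and 149 CPM, against 1173 and 1205 CPM. No ribosomal protein gene passed, with a median log2 fold change of -0.88 over 26 genes.

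The 6 globin-rich MT cells held 29177 and 10675 non-globin UMIs in libraries A and B, too few for a test of genes. Their globin shares were 4.07%, 17.6% and 50.1% in A and 30.3%, 34.8% and 52.5% in B, all inside the WT range. Slc4a1 had a UMI in 5 of 6 MT cells, at 274 and 1218 CPM in A and B, against 893 and 1272 CPM in WT libraries F and I. Cldn13 had 240 and 843 CPM in the MT cells, against 483 and 639 CPM in the WT cells, Klf1 446 and 1499 CPM, against 988 and 1086 CPM, and Gata1 206 and 187 CPM, against 229 and 227 CPM. For Slc4a1, Cldn13 and Klf1 library A was the lowest of all while library B lay above library F, so the genotypes overlapped.

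Some erythroid genes had few UMIs in the MT cells, and those named here were chosen after their values were seen. Bpgm had no UMI in the 6 MT cells (0 CPM, interval up to 92.6), against 270 CPM in the WT cells. Tspo2 had 34.3 and 93.7 CPM in MT libraries A and B, against 358 and 738 CPM in WT libraries F and I, and Slc2a1 had 34.3 and 281 CPM, against 367 and 645 CPM. For these genes both MT libraries lay below both WT libraries. Gclm and Hk1, of the enzyme and redox list, lay the other way. Gclm had 411 and 656 CPM in A and B, against 406 and 349 CPM in F and I. Hk1 had 137 and 281 CPM, against 94.9 and 105 CPM. The share of all genes lying apart either way is not given here. Over the 6 MT cells Alas2 had 14 UMIs, or 351 CPM (exact 95% Poisson interval 192 to 589), against 694 UMIs, or 1718 CPM (1593 to 1851), in the 62 WT cells. By library it had 103 and 1030 CPM in MT and 1027 and 2649 CPM in WT, so library B equalled library F. The globin shares differed as well, with a median of 32.6% in the 6 MT cells and 45.9% in the WT cells, and Alas2 and Slc2a1 moved with the globin share within WT as given above; the part of the globin share in these differences was not tested. The markers of less mature cells did not all move one way in the MT cells. Kit and Gata2 had no UMI in the 6 MT cells, where a count of 0 allows up to 3, against 2 and 3 UMIs in the 62 WT cells. Cd34 had 5 UMIs in 2 of the 6 MT cells, or 125.5 CPM (40.7 to 293), against 3 UMIs, or 7.43 CPM (1.53 to 21.7), in the WT cells, and 4 of the 5 lay in 1 cell of library A. Of the genes with no UMI in the WT cells, Ctla2a had 3 UMIs in the MT cells, and Sox4, Dock10 and Hcls1 had 2 each. For each of Ctla2a, Sox4 and Dock10 these lay in 1 cell of library A, and for Hcls1 in 2 cells. These intervals cover counting error only.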

How the data were processed

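The deposited table holds raw UMI counts of 3624 genes in 9960 cells, 4980 per genotype, subsampled by the authors as the deposited table's name says. The submitters' processing notes name Cell Ranger 2.0.2, Seurat 2.3.4 and mm10; how the authors chose the deposited genes is not given in the sources used here. A deposited grouping table gives each cell's genotype and library letter. It ties no letter to a sample number and holds no barcodes, so barcodes shared between libraries were not counted.

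UMIs were summed per library and cell class with the 4 globins left out, which makes levels relative to a selected set of genes. Genes were tested with edgeR 4.0.16 (quasi-likelihood, TMM, library as a block because both classes come from the same libraries, Benjamini-Hochberg adjustment) on genes past its filter on low counts, in R 4.3.3. The SE given beside an edgeR log2 fold change is its absolute value divided by the square root of the test's F statistic. DESeq2 1.42.0 was an alternative. Fits were checked on simulated data. No doublet caller was run. Intervals are exact (scipy 1.17.1).

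Cells and gene lists were chosen with earlier results of these data known. Named genes were the erythroid list members, the 10 largest rises and falls per comparison at 20 CPM or more with both libraries moving the same way, and up to 4 members of each other list. Genes named for a count of 5 or fewer were chosen after their values were seen. Results for some genes meeting this rule are not reported here.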

Additional observations from a re-analysis of the deposited data

How the results depend on the processing

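The share of globin-rich cells differed by -1.19 percentage points (MT minus WT) and by -1.09 to -1.17 points with thresholds of 0.5%, 2% and 5% and with thinned cells. Leaving out 1 library gave -0.897 to -1.48 points, with no test. No paired analysis was possible because library letters are tied to no replicate number, so this share could not be paired between genotypes. For genes, the fit without the replicate block called 1574 genes against other WT cells (1542 with it), 1288 against Gata1 Klf1 cells (1280) and 224 between upper and lower cells (353). DESeq2's Wald test called 764, 405 and 141. Leaving out the 2 neutrophil-rich cells left 33 calls between upper and lower cells. The split of calls moved by over 10 percentage points with library totals (473 higher and 1422 lower against other WT cells, 379 and 957 against Gata1 Klf1 cells), with all 4 libraries (516 and 830 against other WT cells), with the upper and lower cells taken from the ends of the globin share and the middle left out (221 and 189, against 226 and 127 for upper and lower cells), without the neutrophil-rich cells (32 and 1 there) and with DESeq2 (498 and 266, 312 and 93, and 119 and 22).

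Among named genes, Hmox1 turned to -7.60 against other WT cells when cells were thinned. Against Gata1 Klf1 cells, Ctsg, Prtn3 and Ms4a3 turned to -0.10, -0.40 and -0.15 when a UMI of Gata1 or Klf1 sufficed, and to -0.89, -1.32 and -3.20 without the neutrophil-rich cells. Elane and Prtn3 turned to 1.04 and 1.66 between upper and lower cells without them. The cause was not tested. With 1 library left out, gene fits have no residual degrees of freedom and were values with no test. The 6 MT cells and the median of 4804.5 non-globin UMIs per WT cell limit what can be seen of low genes.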
